A study of Mus musculus with 4 samples.

Results

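The interferon-stimulated genes described here are 44 genes of mouse CD4+ T cell isolates from lung tumors, out of 25239 gene symbols counted in each of 4 RNA-seq libraries. They were listed by name from what is known of interferon responses, but with earlier results of these data known. They were sorted into 24 genes that respond mainly to type I interferons (type I-biased), 8 that respond mainly to interferon-gamma (IFN-γ-biased) and 12 that are induced by both (shared). All 44 passed the filter on low counts. The study asked how T cells that cannot sense activin-A differ from T cells that can, inside a lung tumor. Lewis lung carcinoma cells that express ovalbumin (LLC-OVA) were injected intravenously into C57BL/6 mice aged 8 to 10 weeks, and lung tumors were taken after 18 to 22 days according to the sample labels. The paper's methods give days 16 to 20 for the experiment with CD4/ALK4-KO mice. One group of 2 libraries is labelled WT. The other group of 2 libraries is labelled CD4/ALK4-KO and comes from CD4CreERT2+/-/Acvr1bfl/fl mice, in which tamoxifen (75 mg/kg daily for 5 days) switches on Cre under the *Cd4* promoter and so removes the activin receptor ALK4 from the cells that use this promoter. Whether the WT mice also received tamoxifen or carried Cre is not given in the sources used here. CD4+ cells were isolated from the leukocyte layer of a density gradient of digested lung. The 2 libraries of each genotype are described as biological replicates.

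Interferons are secreted alarm proteins. Type I interferons (the alpha family and beta) bind the receptor IFNAR1/IFNAR2 and act through the kinases JAK1 and TYK2 on the complex ISGF3, which includes STAT2 and IRF9 and binds a DNA element called ISRE. IFN-γ, made chiefly by T cells and NK cells, binds IFNGR1/IFNGR2 and acts through JAK1 and JAK2 on genes with an element called GAS, and its target IRF1 then reaches ISRE elements as well. The products block viral replication, sense foreign nucleic acid, attack intracellular parasites and raise antigen presentation. Chronic interferon exposure has been linked to T cell exhaustion in tumors.

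The letters of these elements were found in the promoters of members of every class, and the windows printed next show them in genes that later turn out higher, lower and not called. RefSeq promoters (GRCm38.p6, 250 bases before to 50 bases after the start) were at hand for 33 of the 44 members. The ISRE core was searched as GAAA, any 2 bases and GAAA, and the GAS core as TTCNNNGAA, on both strands. In each line the 30 bases read 5′ to 3′ on the gene's strand and the capitals mark the match.
*Isg15* ISRE, chr4:156200871-156200900, minus strand: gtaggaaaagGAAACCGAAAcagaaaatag
*Rsad2* ISRE, chr12:26456553-26456582, minus strand: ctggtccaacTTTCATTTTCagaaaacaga
*Oas3* ISRE, chr5:120777715-120777744, minus strand: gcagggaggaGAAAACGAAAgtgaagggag
*Ifitm2* ISRE, chr7:140955988-140956017, minus strand: ccaccaacagGAAAAGGAAAttgctagaga
*Ifitm3* ISRE, chr7:141010723-141010752, minus strand: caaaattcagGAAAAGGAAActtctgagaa
*Gbp7* ISRE, chr3:142530273-142530302, plus strand: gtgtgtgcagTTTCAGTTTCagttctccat
*Gbp7* GAS, chr3:142530239-142530268, plus strand: aagcagaagcTTCTCAGAAagtcagcacaa
*Irf1* GAS, chr11:53769914-53769943, plus strand: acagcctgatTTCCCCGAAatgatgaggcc
The matches start 72 bases upstream of the annotated start in *Isg15*, 120 in *Rsad2*, 75 in *Oas3*, 46 in *Ifitm2*, 53 and 87 in *Gbp7* and 90 in *Irf1*, and 2 bases downstream of it in *Ifitm3*. *Irf1* held the GAS letters and not the ISRE letters in this window, whereas *Gbp7* held both.

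Of the 33 members, 20 (60.6%) held the ISRE letters in any of their promoters, against 3.99% of 27025 genes with RefSeq promoters of the same length. The GAS letters were in 10 (30.3%), against 9.55%. By class, the ISRE letters were in 10 of 17 type I-biased, 6 of 7 IFN-γ-biased and 4 of 9 shared genes with a promoter at hand. The GAS letters were in 3 of 17, 4 of 7 and 3 of 9. These members were also split by their outcome in the comparison of genotypes. The ISRE letters stood in 8 of the 16 genes that were higher, in 3 of the 4 that were lower and in 9 of the 13 not called. A match is a run of letters and was not tested as a binding site. In *Ifitm3* the GAS letters, 13 bases downstream of the start, overlap a second ISRE match at 19 bases and not the one printed.

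The libraries held 11823908 to 13943237 counted reads. Libraries of one genotype differed from each other by more than counting error, the chi-square divided by its degrees of freedom being 13.33 in the WT pair and 23.99 in the CD4/ALK4-KO pair, so none was a copy of another. *Acvr1b*, which encodes ALK4, was counted 426 and 342 times under the WT label and 322 and 445 times under the CD4/ALK4-KO label (log2 fold change 0.16, SE 0.24, adjusted p = 0.66 by edgeR). The groups overlapped in this gene-wide count, which also takes reads from exons outside the deletion and from other cells, so the count does not check the genotype labels. The labelled cell type was checked against its markers. All 16 T cell markers were higher under the CD4/ALK4-KO label. Their summed level, in CPM (counts scaled to a common library size), was 535 to 584 in WT and 2935 to 3031 in CD4/ALK4-KO, and *Cd4* itself was at 759 and 649 against 3654 and 4033 counts. All 8 markers of CD8+ T and NK cells and all 7 of B cells were also higher. Macrophage markers summed to 6751 and 7622 CPM in WT and 6639 and 6389 CPM in CD4/ALK4-KO (1 of 12 higher, none lower), and fibroblast markers to 7975 and 8377 against 5826 and 5389 CPM (4 of 8 lower, none higher). No marker of these lists was at 0 in every library. These are therefore mixed isolates, in which fewer cells of a type and less RNA per cell cannot be told apart, and the part that this shift in cell markers has in any value given here was not tested.

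Most of the interferon-stimulated genes that differed were higher under the CD4/ALK4-KO label. By edgeR's quasi-likelihood test with Benjamini-Hochberg adjustment over all 13919 genes tested, 23 of 44 members were higher (adjusted p under 0.05), 4 were lower and 17 were not called. Over all genes tested, 17.4% were called higher and 15.4% lower, 32.8% in all. The median log2 fold change of the members was 0.66, that of all genes tested was -0.0082, and the middle 50% of all genes ran from -0.48 to 0.52. Both CD4/ALK4-KO libraries lay above both WT libraries for 31 members and below both for 4, shares to be read against 32.7% and 34% of all genes tested. The 4 lower members were *Isg15* and the 3 *Ifitm* genes. On a scale set by 4 T cell receptor complex genes (*Cd3d*, *Cd3e*, *Cd3g*, *Cd247*), no member was higher and 43 were lower, as were 92% of all genes. This scale moved the genes by a median of -2.18 log2 units. The shift is nearly the same for every gene, so the scale cannot test how the members stand against other genes. Leaving out WT replicate 1 lost 17 of the 27 calls (9 members higher, against 7.66% of all genes) and leaving out WT replicate 2 lost 11, each fit holding 1 WT library. The calls of *Gbp5*, *Irf1*, *Mx1*, *Oas2*, *Oas3*, *Parp14*, *Samd9l*, *Sp100* and *Stat2* held whichever library was left out.

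**Figure D1:**
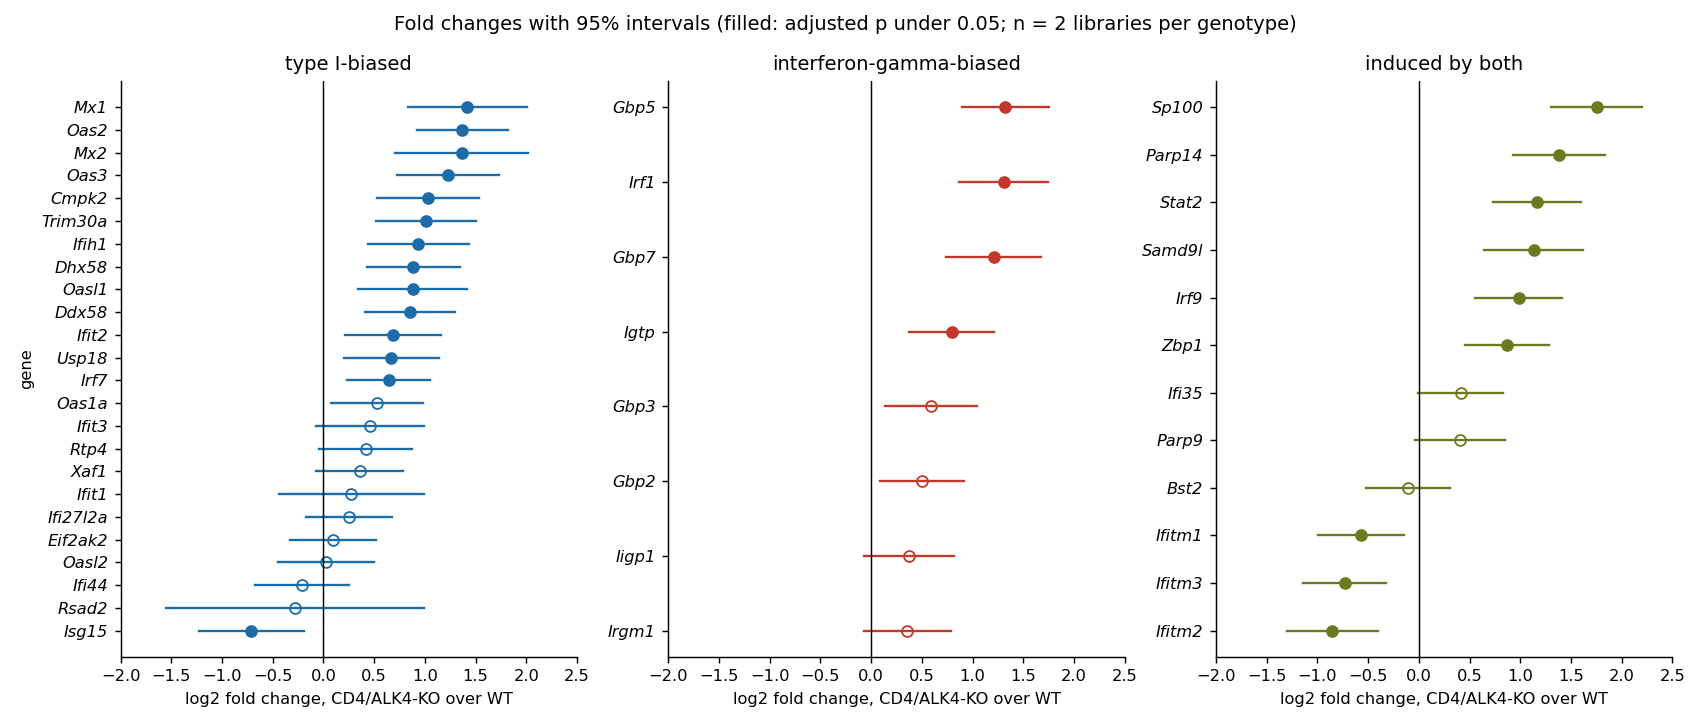
Log2 fold change of each of the 44 members (CD4/ALK4-KO over WT, horizontal axis) with unadjusted 95% intervals, grouped by class and ordered by size, with filled points for an adjusted p under 0.05 (edgeR, n = 2 libraries per genotype). The filled points to the right of 0 number 13, 4 and 6 in the type I-biased, IFN-γ-biased and shared panels, and those to the left are *Isg15*, *Ifitm1*, *Ifitm2* and *Ifitm3*.

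Among the type I-biased genes, the *Mx* family genes *Mx1* and *Mx2* were higher under the CD4/ALK4-KO label. So were the oligoadenylate synthetase genes *Oas2* and *Oas3* and the RIG-I-like RNA sensors, while *Isg15* was lower and *Rsad2* was not called. Of the 24, 13 were higher, 1 was lower and 10 were not called (17.4% higher and 15.4% lower over all genes tested). Their median log2 fold change was 0.66, with a range from -0.71 to 1.42. *Mx1* and *Mx2* belong to a family of dynamin-like GTPases that trap viral components, and *Mx2* is annotated as a polymorphic pseudogene. Whether either transcript gives a working protein in these mice was not tested. *Mx1* was at 13.4 and 23.1 CPM in the WT libraries and at 62.7 and 34.8 CPM in the CD4/ALK4-KO libraries (log2 fold change 1.42, SE 0.30, adjusted p = 0.0014). *Mx2*, the least abundant member, was at 3.65 and 5.99 against 13.3 and 11.5 CPM (1.36, SE 0.34, adjusted p = 0.0035). In both genes the genotypes did not overlap, although in *Mx1* replicate 1 of CD4/ALK4-KO lay far above replicate 2. The call of *Mx2* was lost without WT replicate 1.

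The oligoadenylate synthetases make a messenger that activates RNase L, and 3 of the 5 members of this family passed the test. *Oas2* was at 19.4 and 22.7 CPM in WT and at 57.9 and 51.0 CPM in CD4/ALK4-KO (log2 fold change 1.37, SE 0.23, adjusted p = 8.7e-05). *Oas3*, whose ISRE window is printed earlier, was at 13.1 and 15.4 against 36.0 and 30.6 CPM (1.23, SE 0.26, adjusted p = 0.00088). *Oasl1*, which encodes an OAS-like protein without synthetase activity that restrains translation of *Irf7* mRNA, was at 14.96 and 10.8 against 24.2 and 23.2 CPM (0.88, SE 0.27, adjusted p = 0.016). These 3 genes did not overlap between genotypes. *Oas1a* did not pass the test (0.53, SE 0.23, adjusted p = 0.083), and reads may be shared with near-identical copies of it. *Oasl2* did not either, at 0.025 (SE 0.24, adjusted p = 0.95), and its libraries overlapped. *Cmpk2*, a mitochondrial nucleotide kinase gene next to *Rsad2* on chromosome 12, was at 15.2 and 17.0 against 36.7 and 29.2 CPM (1.03, SE 0.26, adjusted p = 0.0036). Its call was lost without WT replicate 1.

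The 3 RIG-I-like receptor genes, whose products recognise viral RNA in the cytosol, were each higher and none overlapped. *Ddx58*, which encodes RIG-I, was at 92.5 and 124 CPM in WT and at 222 and 169 CPM in CD4/ALK4-KO (log2 fold change 0.85, SE 0.23, adjusted p = 0.0060). *Ifih1*, which encodes MDA5, was at 40.1 and 65.5 against 122 and 79.5 CPM (0.93, SE 0.26, adjusted p = 0.0076). *Dhx58*, which encodes the regulator LGP2, was at 20.1 and 22.2 against 39.8 and 38.5 CPM (0.89, SE 0.24, adjusted p = 0.0059). The replicates of *Dhx58* lay closest together of these 3. *Irf7*, the transcription factor that amplifies type I interferon production, was at 81.6 and 86.3 against 136 and 126 CPM (0.64, SE 0.21, adjusted p = 0.021). *Trim30a*, a TRIM family gene of the innate response, was at 133 and 174 against 388 and 230.3 CPM (1.01, SE 0.25, adjusted p = 0.0035). *Usp18* encodes the protease that removes ISG15 from proteins and also blocks IFNAR2 signalling. It was at 38.2 and 42.4 against 80.0 and 48.4 CPM (0.67, SE 0.24, adjusted p = 0.036), with the lower CD4/ALK4-KO library close to the WT libraries. Without CD4/ALK4-KO replicate 1 it was not called (0.29). Its call, like those of *Irf7*, *Dhx58* and *Oasl1*, was also lost with either WT library left out. *Ddx58*, *Ifih1* and *Trim30a* lost theirs without WT replicate 1.

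The *Ifit* genes, *Rsad2* and *Isg15* gave less uniform values. The *Ifit* genes lie side by side on chromosome 19 and encode proteins that bind viral RNA. *Ifit2* was at 76.7 and 91.5 CPM in WT and at 171 and 99.5 CPM in CD4/ALK4-KO (log2 fold change 0.68, SE 0.24, adjusted p = 0.032), so the second CD4/ALK4-KO library was just above the WT range, and without CD4/ALK4-KO replicate 1 the difference was 0.27 and was not called. *Ifit1* (0.27, SE 0.36, adjusted p = 0.62) and *Ifit3* (0.46, SE 0.27, adjusted p = 0.21) overlapped between genotypes, and *Ifit3* may share reads with its near copy *Ifit3b*. *Rsad2*, which encodes viperin, an enzyme that makes a chain-terminating nucleotide, had the highest mean count of the class. It was at 300.4 and 558 CPM in WT and at 514 and 192 CPM in CD4/ALK4-KO (-0.28, SE 0.65, adjusted p = 0.79). Its replicates differed more than its genotype means of 429 ± 182 and 353 ± 228 CPM (SD, n = 2). *Isg15*, the ubiquitin-like modifier, was at 139 and 245 CPM in WT and at 142 and 92.8 CPM in CD4/ALK4-KO (-0.71, SE 0.26, adjusted p = 0.044). The groups overlapped, and the difference was not called without WT replicate 2 (-0.26) or without CD4/ALK4-KO replicate 2 (-0.44). *Ifi27l2a*, which encodes a small mitochondrial protein, was at 172 and 184 against 189 and 234 CPM (0.25, SE 0.22, adjusted p = 0.40), without overlap. The remaining members not called were *Rtp4* (0.42), *Xaf1* (0.36), *Eif2ak2* (0.092), which encodes the kinase PKR, and *Ifi44* (-0.21).

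**Figure D2:**
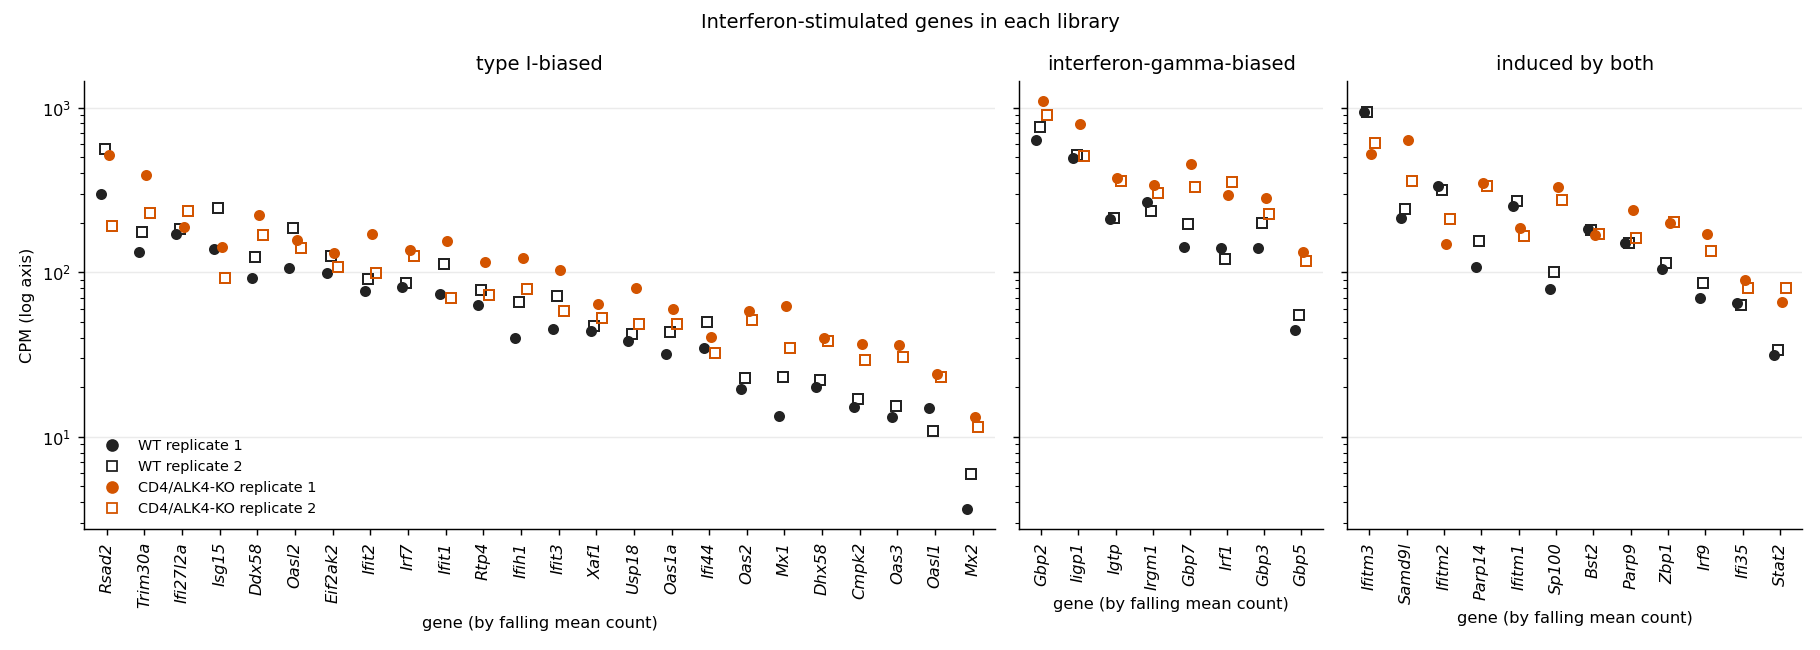
Level of each member in each library in CPM (log axis), by class and by falling mean count, with black symbols for the libraries labelled WT, orange for CD4/ALK4-KO, filled circles for replicate 1 and open squares for replicate 2. The levels run from 3.65 CPM (*Mx2* in WT replicate 1) to 1089 CPM (*Gbp2* in CD4/ALK4-KO replicate 1), and in *Rsad2* the WT replicate 2 symbol is the highest and the CD4/ALK4-KO replicate 2 symbol the lowest.

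The IFN-γ-biased genes were each higher on average under the CD4/ALK4-KO label, by a log2 fold change from 0.36 to 1.32 with a median of 0.69. Of the 8, 4 passed the test (17.4% of all genes tested were called higher). *Irf1*, the transcription factor that carries the second wave of the IFN-γ response, was at 140.3 and 121 CPM in WT and at 293 and 353 CPM in CD4/ALK4-KO (1.31, SE 0.22, adjusted p = 0.00011). Guanylate-binding proteins coat and break the vacuoles of intracellular microbes, and the 4 members of this family lie in 1 cluster on chromosome 3. *Gbp5* was at 44.4 and 55.2 against 133 and 116 CPM (1.32, SE 0.22, adjusted p = 7.6e-05). *Gbp7*, with both element letters in its promoter window, was at 142 and 196 against 452 and 329 CPM (1.21, SE 0.24, adjusted p = 0.00048). In these 3 genes the lower CD4/ALK4-KO library stood well above the higher WT library. The call of *Gbp7* was lost without WT replicate 1. *Gbp2*, the most abundant of the class, was at 638 and 767 against 1089 and 903 CPM, and it did not pass the test (0.50, SE 0.21, adjusted p = 0.070). *Gbp3* did not pass either (0.59, SE 0.23, adjusted p = 0.055). Reads of these related genes may be assigned in part to one another.

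The immunity-related GTPases act on the same vacuoles. *Igtp* was at 211 and 213 CPM in WT and at 375 and 359 CPM in CD4/ALK4-KO (log2 fold change 0.79, SE 0.22, adjusted p = 0.0069), with replicates that nearly coincided, and 8.01% of its exon bases overlap the neighbouring gene *Irgm2*. The call of *Igtp* was lost with either WT library left out, its fold change ranging from 0.78 to 0.82 over the fits without 1 library. *Iigp1* was at 496 and 514 against 796 and 511 CPM (0.37, SE 0.23, adjusted p = 0.22), so the second CD4/ALK4-KO library fell within the WT range. *Irgm1* did not pass the test (0.36, SE 0.22, adjusted p = 0.22), although its libraries did not overlap. Without CD4/ALK4-KO replicate 2, 7 of the 8 genes were called higher (19.1% of all genes), and without WT replicate 1, 2 of the 8 were (7.66% of all genes).

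The shared genes divided into a group that was higher, which held components of ISGF3 and nuclear antiviral factors, and the *Ifitm* genes, which were lower. Of the 12, 6 were higher, 3 were lower and 3 were not called (17.4% higher and 15.4% lower over all genes tested). *Stat2* was at 31.4 and 33.6 CPM in WT and at 66.2 and 79.8 CPM in CD4/ALK4-KO (log2 fold change 1.17, SE 0.22, adjusted p = 0.00033). *Irf9* was at 69.4 and 85.7 against 172 and 135 CPM (0.98, SE 0.22, adjusted p = 0.0015). Both are subunits of the complex that reads the ISRE. *Sp100*, a component of PML nuclear bodies, had the largest fold change of all 44 members, at 78.7 and 100.5 against 328 and 276 CPM (1.75, SE 0.23, adjusted p = 4.3e-06), a ratio of means of 3.37. *Parp14*, an ADP-ribosyltransferase, was at 107 and 156 against 349.9 and 334 CPM (1.38, SE 0.23, adjusted p = 8.9e-05). *Samd9l*, a restriction factor that inhibits translation, was at 212 and 242 against 637 and 359 CPM (1.13, SE 0.25, adjusted p = 0.0013). *Zbp1*, which senses Z-form nucleic acid, was at 104 and 114 against 199 and 201 CPM (0.87, SE 0.21, adjusted p = 0.0030). None of these 6 overlapped between genotypes. Without WT replicate 1 the calls of *Irf9* and *Zbp1* were lost, and that of *Zbp1* also without WT replicate 2. *Parp9* (0.41, adjusted p = 0.18), *Ifi35* (0.41, adjusted p = 0.14) and *Bst2* (-0.11, adjusted p = 0.74), which encodes tetherin, were not called.

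*Ifitm1*, *Ifitm2* and *Ifitm3* encode membrane proteins that block viral fusion, and they lie together on chromosome 7. *Ifitm3* was at 945 and 935 CPM in WT and at 519.6 and 612 CPM in CD4/ALK4-KO (log2 fold change -0.73, SE 0.21, adjusted p = 0.0095). *Ifitm2* was at 334 and 315 against 148 and 211 CPM (-0.85, SE 0.23, adjusted p = 0.0063), and 40.9% of its exon bases also belong to the annotated gene *Gm45717*. *Ifitm1* was at 251 and 272 against 185 and 167 CPM (-0.57, SE 0.22, adjusted p = 0.045). In each gene both CD4/ALK4-KO libraries were below both WT libraries, the reverse of the other shared genes that passed the test. With either WT library left out none of the 3 was called, at -0.63 and -0.52 for *Ifitm1*, -0.82 and -0.90 for *Ifitm2* and -0.73 and -0.75 for *Ifitm3*. The fibroblast markers summed lower in the same libraries, as given earlier, and so did the epithelial markers, at 967 and 946 CPM in WT against 629 and 495 CPM in CD4/ALK4-KO. Of these 8 epithelial markers, *Krt8*, *Krt18*, *Sftpc* and *Scgb1a1* were lower and *Epcam* and *Cdh1* were higher. The part of either marker list in the *Ifitm* values was not tested.

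Per kilobase of annotated exon, the levels of the 44 members differed widely. *Ifitm3* stood highest in both genotypes, at 1386 CPM per kb in WT and 834 in CD4/ALK4-KO, followed in WT by *Ifitm2* (496 and 274), *Ifi27l2a* (384 and 458), *Gbp2* (279 and 396) and *Isg15* (254 and 155). In CD4/ALK4-KO the order after *Ifitm3* was *Ifi27l2a*, *Gbp2* and *Ifitm2*. *Mx2* (1.33 and 3.43) and *Oas3* (2.02 and 4.72) stood lowest. The 4 lower members were thus among the short, abundant transcripts, while several of the largest rises on the log2 scale were in *Mx* and *Oas* transcripts of low level.

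The type I-biased and IFN-γ-biased classes had nearly the same median log2 fold change, 0.66 and 0.69, while the replicates of a genotype lay farther apart in the type I-biased class. Summed over the 8 IFN-γ-biased genes, the level was 2078 and 2301 CPM in WT and 3762 and 3100 CPM in CD4/ALK4-KO, without overlap. Summed over the 24 type I-biased genes it was 1670 and 2402 against 3060 and 2072 CPM, so CD4/ALK4-KO replicate 2 lay within the WT range. The shared genes summed to 2532 and 2647 against 3100 and 2786 CPM, again without overlap. On the scale of the mean log2 CPM of its members, with 0.5 CPM added, the type I-biased class was at 5.52 and 5.91 in WT and at 6.52 and 6.06 in CD4/ALK4-KO, and the IFN-γ-biased class at 7.62 and 7.78 against 8.62 and 8.38. The difference of the class means, IFN-γ-biased minus type I-biased, was 2.098 and 1.865 in WT and 2.100 and 2.325 in CD4/ALK4-KO. The genotypes did not overlap, but replicate 1 of WT and replicate 1 of CD4/ALK4-KO nearly coincided.

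The type I-biased genes moved together between libraries of 1 genotype. In 23 of 24, all but *Oasl1*, WT replicate 2 was above WT replicate 1, and in 23 of 24, all but *Ifi27l2a*, CD4/ALK4-KO replicate 1 was above replicate 2. Over all genes tested, the shares in these directions were 49.6% and 48.9%. The median differences were 0.37 log2 units in WT and 0.32 in CD4/ALK4-KO for the type I-biased class, 0.16 and 0.23 for the IFN-γ-biased class (6 and 7 of 8 genes), and 0.11 and 0.11 for the shared class (7 and 7 of 12). *Rsad2* spread most within CD4/ALK4-KO, by 1.42 log2 units, and by 0.89 within WT. Of the 8 neutrophil markers, 6 went in the same direction in each genotype, with summed levels of 907 and 1391 CPM in WT and 1412 and 926 CPM in CD4/ALK4-KO. In each other marker list at most 50% of the genes took this direction in WT, and at most 66.7% (dendritic cells) in CD4/ALK4-KO. The part of these cells in the type I-biased values was not tested. The gap between genotypes therefore depended on which libraries were set against each other. The median over the type I-biased genes was 1.01 for CD4/ALK4-KO replicate 1 minus WT replicate 1 and 0.23 for CD4/ALK4-KO replicate 2 minus WT replicate 2. For the IFN-γ-biased genes these values were 0.92 and 0.56.

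**Figure D3:**
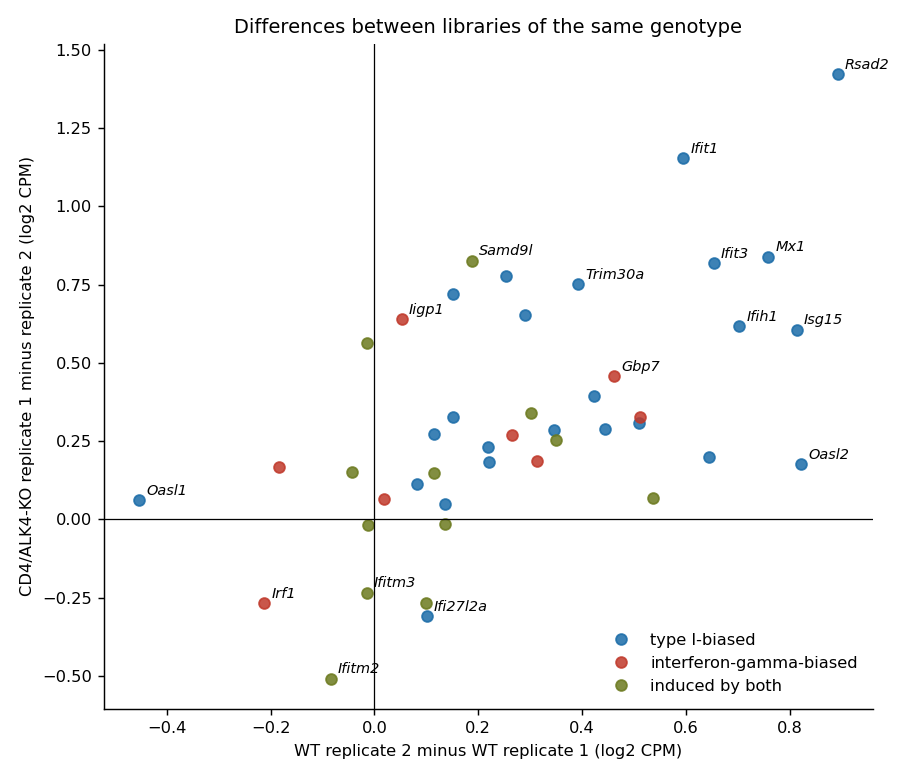
Difference between the libraries of a genotype for each member, in log2 CPM, with WT replicate 2 minus replicate 1 on the horizontal axis and CD4/ALK4-KO replicate 1 minus replicate 2 on the vertical axis, coloured by class. The type I-biased points lie at or above 0 on both axes except *Oasl1* and *Ifi27l2a*, and *Rsad2* is farthest out at 0.89 and 1.42.

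The signalling genes upstream of these targets were higher for the ligand IFN-γ and for the JAK kinases listed here. They come from lists of 135 further pathway genes, also chosen with earlier results of these data known. Of these, 112 were tested, 70 (62.5%) were higher and none was lower (17.4% and 15.4% of all genes tested). *Ifng* was counted 118 and 149 times under the WT label and 357 and 382 times under the CD4/ALK4-KO label. In CPM this was 8.61 and 11.01 against 29.99 and 30.9 (log2 fold change 1.63, SE 0.27, adjusted p = 7.5e-05). The T cell markers summed to 584 and 535 CPM in WT against 3031 and 2935 CPM in CD4/ALK4-KO. The markers of CD8+ T and NK cells summed to 144 and 193 against 689 and 599 CPM. The part of these cells in the *Ifng* values was not tested, so the values do not give *Ifng* per T cell. Type I interferon genes gave almost no reads. Of the 20 other ligand genes listed, 18 had 0 counts in every library, *Ifnb1* had 3 counts in WT replicate 1 and none elsewhere, and *Ifnz* had 2 and 1 counts in WT and none in CD4/ALK4-KO. A count of 0 allows up to 3 reads per library, or 0.219 to 0.252 CPM, so lower levels of these ligands were not detectable at this depth.

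The receptor chains were not all alike. *Ifngr1*, the ligand-binding chain for IFN-γ, was at 188 and 212 CPM in WT and at 487 and 493 CPM in CD4/ALK4-KO (log2 fold change 1.29, SE 0.22, adjusted p = 8.9e-05), whereas the second chain *Ifngr2* was not called (0.11, adjusted p = 0.73). *Ifnar1*, of the type I receptor, was at 86.0 and 99.4 against 178 and 199.7 CPM (1.03, SE 0.21, adjusted p = 0.00078), and its partner *Ifnar2* was not called (0.33, adjusted p = 0.23). Thus 1 chain of each receptor passed the test. *Jak1*, used by both receptors, was at 375 and 517 against 964 and 832 CPM (1.01, SE 0.22, adjusted p = 0.0013). *Jak2*, of the IFN-γ receptor, rose by a log2 fold change of 1.04 (SE 0.21, adjusted p = 0.00061), and *Tyk2*, of the type I receptor, by 0.59 (SE 0.22, adjusted p = 0.045). Of the 9 negative regulators, 5 were higher and none was lower (17.4% and 15.4% of all genes tested). *Socs1*, which blocks the JAK kinases, was at 17.2 and 11.75 against 22.9 and 25.0 CPM (0.72, SE 0.27, adjusted p = 0.045), and the called genes of this list with the highest counts were the phosphatase genes *Ptpn6* (1.41), *Ptpn1* (0.56) and *Ptpn11* (0.57).

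**Figure D4:**
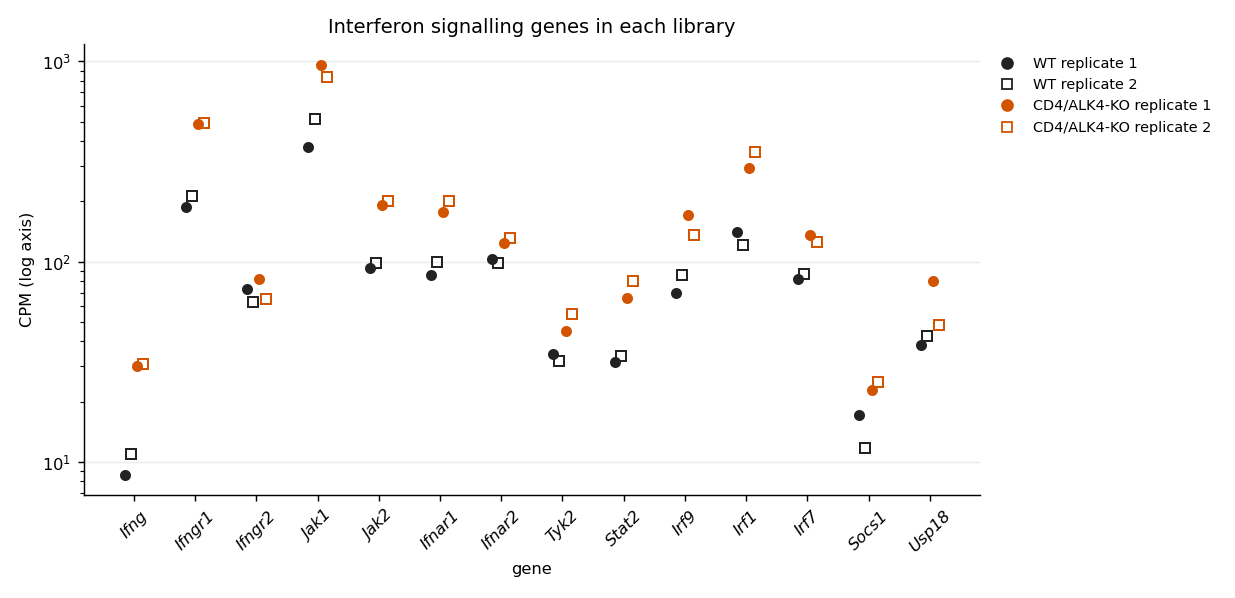
Level of interferon signalling genes in each library in CPM (log axis), with black symbols for the libraries labelled WT, orange for CD4/ALK4-KO, filled circles for replicate 1 and open squares for replicate 2. For *Ifng*, *Ifngr1* and *Jak1* both orange symbols lie above both black symbols, and for *Ifngr2* they overlap.

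Most further targets of both interferons were higher as well. Of 22 other IFN-γ targets tested, 16 were higher and none lower (17.4% and 15.4% of all genes tested), with a median log2 fold change of 0.82. *Psmb8*, an immunoproteasome subunit, was at 191 and 193 CPM in WT and at 417 and 382 CPM in CD4/ALK4-KO (1.06, SE 0.22, adjusted p = 0.0007), and *Gbp9* (1.19) and *Gbp4* (1.73) were the other called genes of this list with the highest counts. *Ciita*, the master regulator of MHC class II genes, was at 11.75 and 7.39 against 21.2 and 40.9 CPM (1.70, SE 0.32, adjusted p = 0.00034), and the part of B cells, which use this gene constitutively, was not tested (their markers summed to 69.0 and 58.1 against 193 and 394 CPM). Of the chemokines that draw CXCR3+ T cells, *Cxcl9* was at 51.3 and 51.3 against 85.9 and 88.9 CPM (0.77, SE 0.21, adjusted p = 0.0078), and *Cxcl10* did not pass the test (0.30, adjusted p = 0.29).

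Of 56 other type I targets tested, 36 were higher and none lower (17.4% and 15.4% of all genes tested), with a median of 0.93. The highest counts among the called genes belonged to *Samhd1*, a dNTP hydrolase, at 311 and 359.6 CPM in WT and 721 and 696 CPM in CD4/ALK4-KO (log2 fold change 1.08), *Rnf213* (1.70) and *Slfn2* (0.90). *Ube2l6*, which encodes the conjugating enzyme for ISG15, was picked out after its values were seen. It was at 444 and 981 against 530.3 and 243 CPM (-0.88, SE 0.60, adjusted p = 0.36), with the same order of libraries within each genotype as *Isg15* and *Rsad2*. Among 15 nucleic acid sensors, adaptors and other interferon regulatory factors, 7 were higher and none lower (17.4% and 15.4% of all genes tested). Their median was 0.39, and the called genes with the highest counts were *Myd88* (0.63), *Ikbke* (1.52) and *Irf8* (0.64).

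**Figure D5:**
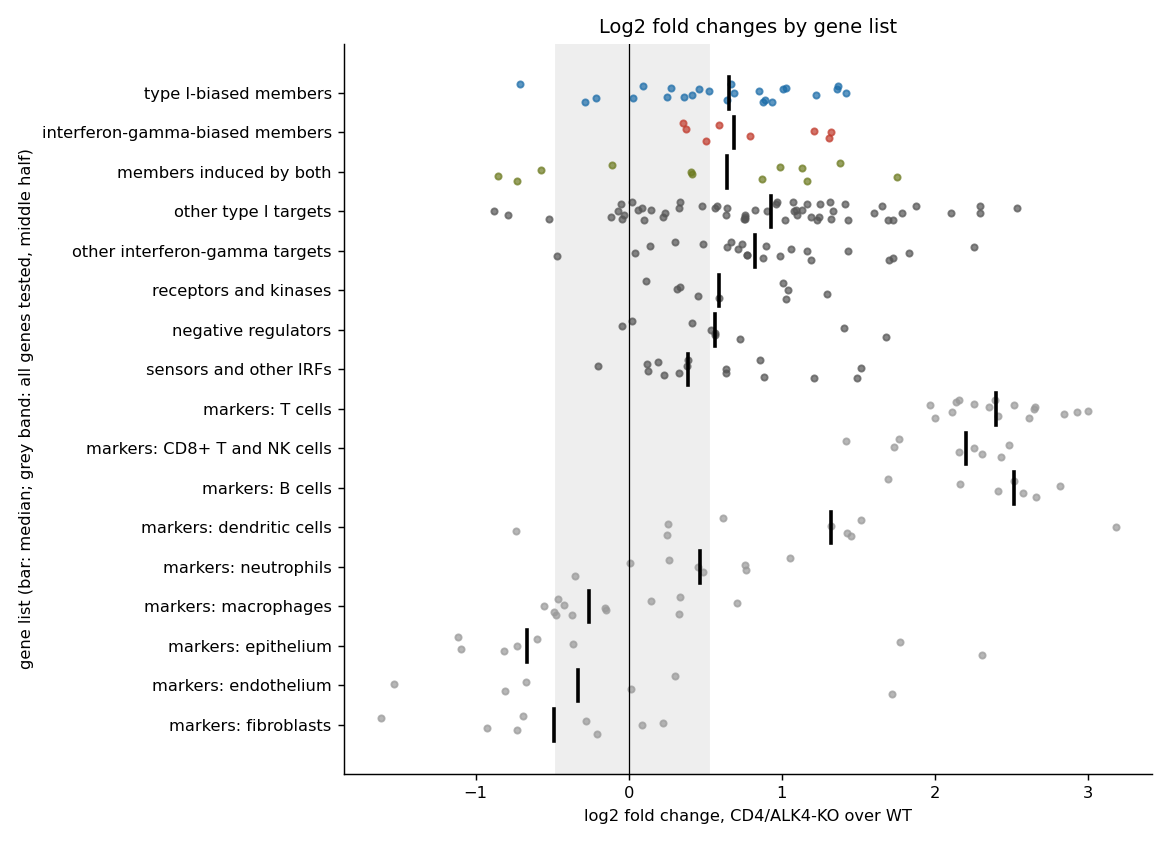
Log2 fold changes (CD4/ALK4-KO over WT, horizontal axis) of the genes of each list, one point per gene tested, with a bar at the list median and a grey band for the middle 50% of all genes tested (-0.48 to 0.52). The medians of the 3 member classes (0.66, 0.69 and 0.64) lie to the right of the band and below those of the T cell markers (2.402) and B cell markers (2.52).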

How the data were processed

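RNA was measured in 4 libraries of tumor-infiltrating CD4+ T cell isolates, 2 per genotype. The authors sequenced 75 bp single-end reads, aligned them to mm10 with HISAT2 and counted them per gene symbol with HTSeq, and the deposited values are raw read counts, 1 table per library. Versions, annotation and the strand option are not given in the sources used here; the kit does not keep strand, so overlapping antisense genes cannot be separated. Counts were tested with edgeR 4.0.16 in R 4.3.3 (filterByExpr, TMM, robust quasi-likelihood fit, genotype as the only term), with Benjamini-Hochberg adjustment over 13919 genes. SE was taken as the size of the log2 change over the root of the F statistic. CPM uses TMM-scaled library sizes, and the floors for a count of 0 cover counting error only. Exon lengths and locations are from GENCODE M21 and promoters from RefSeq. Members and lists were chosen with earlier results of these data known. All 44 members are named, and values per library are given for those past an adjusted p of 0.05 and the 3 of highest mean count in each class; of the other pathway genes, the text names the ligand, receptor chains, kinases, *Socs1*, *Ciita*, *Cxcl9*, *Cxcl10* and up to 3 called genes of highest count per list. One gene of the pathway is not reported here. The procedure was tested on simulated counts of 13724 genes, 2 libraries against 2. It recovered 46.5% of 99 genes changed by 1 log2 unit and 93.9% of 98 changed by 2, and called 7 unchanged genes. Far fewer genes were changed there than the 32.8% called in the data, so these recovery rates need not hold for the data. The alternatives were other scalings (DESeq2 1.42.0 size factors, upper quartile, T cell receptor genes), other filters, the Wald test of DESeq2, the likelihood ratio test of edgeR, a replicate block and leaving out each library.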

Additional observations from a re-analysis of the deposited data

How the results depend on the processing

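The 23 higher and 4 lower members came from 2 libraries per genotype, and the calls depended on the libraries more than on the tool. With DESeq2 size factors, upper quartile scaling, either other filter on low counts, the Wald test of DESeq2 or the likelihood ratio test of edgeR, 22 to 25 members were higher and 4 were lower. Of the 27 called, 9 (*Gbp5*, *Irf1*, *Mx1*, *Oas2*, *Oas3*, *Parp14*, *Samd9l*, *Sp100* and *Stat2*) kept their call under every alternative other than the T cell receptor scale. In fits that left out 1 library each, the lone library of a genotype being assumed to vary like the others, the members called higher ranged from 9 to 31, those called lower from 0 to 5 and their median from 0.44 to 0.81. The type I-biased genes ranged from 3 to 17 higher and from 0 to 2 lower with a median of 0.42 to 0.86, the IFN-γ-biased from 2 to 7 higher with a median of 0.61 to 0.83, the shared from 4 to 7 higher and 0 to 3 lower with a median of 0.53 to 0.76, and the other pathway genes from 34 to 69 higher and from 0 to 3 lower. The fewest higher calls came without WT replicate 1 (9 members, against 7.66% of all genes) and no member was lower without WT replicate 2. Over all genes, the shares called higher and called lower were both smaller than in the main fit with either WT library left out. Both were larger with either CD4/ALK4-KO library left out. The ranges of calls of the members, classes and other pathway genes are to be read against these shifts. Genes that changed sign were *Ifit1* (-0.39 to 0.73), *Oasl2* (-0.34 to 0.49, and -0.038 with upper quartile scaling), *Rsad2* (-1.13 to 0.25), *Ifi44* (-0.46 to 0.059) and *Eif2ak2* (-0.079 to 0.27), none of them called with all 4 libraries. The labels do not say that replicate numbers pair libraries. The deviations of same-numbered libraries from their genotype means were negatively correlated, weakly over all genes (-0.24) and more so over the members (-0.58). With the replicate number as a block, 18 members were higher and 1 was lower (12.7% and 10.4% of all genes), with 0 lower among the type I-biased, 1 among the shared and 1 among the other pathway genes, and *Isg15*, *Ifit2*, *Oasl1*, *Irf7*, *Usp18*, *Igtp*, *Ifitm1* and *Ifitm3* lost their call. With the crossed pairing, chosen after seeing the data, 28 members were higher and 4 lower (22.4% and 21.8% of all genes), and 3 other pathway genes were lower. Of the other pathway genes, 1 was lower with upper quartile scaling and 2 without a filter. On the T cell receptor scale 0 members were higher and 43 lower (median -1.54). The lower genes were 24 type I-biased (median -1.54), 8 IFN-γ-biased (-1.50), 11 shared (-1.55) and 98 other pathway genes (-1.42), with 0 higher. Of all genes, 92% were lower on this scale. Signs turned there for *Ifit1* -1.95, *Ifit2* -1.53, *Ifit3* -1.76, *Mx1* -0.80, *Mx2* -0.84, *Oas1a* -1.67, *Oas2* -0.82, *Oas3* -0.97, *Oasl1* -1.30, *Oasl2* -2.18, *Irf7* -1.55, *Ifih1* -1.28, *Ddx58* -1.35, *Dhx58* -1.30, *Usp18* -1.54, *Rtp4* -1.79, *Ifi27l2a* -1.93, *Cmpk2* -1.17, *Eif2ak2* -2.11, *Trim30a* -1.20, *Xaf1* -1.83, *Irf1* -0.87, *Gbp2* -1.69, *Gbp3* -1.62, *Gbp5* -0.87, *Gbp7* -0.999, *Igtp* -1.40, *Irgm1* -1.83, *Iigp1* -1.83, *Stat2* -1.01, *Irf9* -1.22, *Ifi35* -1.78, *Zbp1* -1.31, *Parp9* -1.796, *Parp14* -0.81, *Samd9l* -1.08, *Sp100* -0.45. This scale moved all genes by a median of -2.18 log2 units. Relative to that shift the median of the members was 0.64, against 0.66 in the main fit. What lies behind the changes between the other fits was not tested.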
